A study of Mus musculus with 10 samples.

Results

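The genes described here are Bfsp1, Bfsp2, Vim, Lim2, Tmod1, Lgsn, Grifin and Birc7. Bfsp1, Bfsp2, Vim, Lim2 and Tmod1 encode parts of the cytoskeleton or membrane of the lens fibre cell. Lgsn, Grifin and Birc7 belong to other protein families. All 8 genes were chosen by name, as every probe set whose single gene symbol was one of them. Of the 45101 probe sets on the array, 9 met that rule and stood for 7 of the 8 genes. Vim had 3 probe sets and the other 6 genes had 1 each, and no probe set carried the symbol Lgsn alone. All 7 genes passed the filter on low signals, among 13444 genes tested.

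RNA was measured in whole dissected mouse lenses from 4 groups, 1 array per sample, in a study of the transcription factor Klf4 in the lens. At postnatal day 56 (PN56) there were 2 samples of Klf4-conditional null lenses, labelled Klf4CN, and 2 of wild-type (WT) lenses, each a pool from 3 young adults. At embryonic day 16.5 (E16.5) there were 3 Klf4CN samples and 3 WT samples, each a pool from 5 embryos. The sources used here name no strain, Klf4 allele or Cre driver. Some inbred mouse strains carry a natural deletion in Bfsp2. The 10 arrays limit the precision of every comparison.

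As background, the lens is a ball of long fibre cells under a single layer of epithelium. Filensin, made by Bfsp1, and phakinin, made by Bfsp2, are the lens-specific intermediate filament proteins that together form the beaded filament of the fibre cell. Vimentin, made by Vim, is the general intermediate filament protein of the epithelium and the younger fibres, and also of many mesenchymal cells. Lim2 encodes MP20, an intrinsic membrane protein of fibres. Tmod1 encodes tropomodulin 1, which caps the pointed ends of the short actin filaments of the spectrin membrane skeleton. Grifin encodes a galectin-related fibre protein, Lgsn encodes lengsin, a relative of glutamine synthetase, and Birc7 encodes livin, of the inhibitor of apoptosis family.

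The promoters of Bfsp1, Bfsp2, Grifin and Birc7 are shown because these 4 genes were called lower in Klf4CN lenses at PN56 with the deposited scaling. Each is the 250 bases before the gene's RefSeq start (assembly GRCm38.p6), read 5′ to 3′ along the gene. Capitals mark CACCC, a core of the sites that Krüppel-like factors are known to bind, its reverse complement GGGTG, and the longer CCACNCCC or its reverse complement GGGNGTGG, which can overlap the shorter motif.
Bfsp1 (chr2:143863174-143863423, minus strand): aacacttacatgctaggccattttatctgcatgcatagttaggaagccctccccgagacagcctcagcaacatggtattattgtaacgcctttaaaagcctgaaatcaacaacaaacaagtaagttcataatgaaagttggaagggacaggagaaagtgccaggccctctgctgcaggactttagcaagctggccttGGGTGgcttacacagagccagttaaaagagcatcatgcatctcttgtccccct
Bfsp2 (chr9:103449177-103449426, minus strand): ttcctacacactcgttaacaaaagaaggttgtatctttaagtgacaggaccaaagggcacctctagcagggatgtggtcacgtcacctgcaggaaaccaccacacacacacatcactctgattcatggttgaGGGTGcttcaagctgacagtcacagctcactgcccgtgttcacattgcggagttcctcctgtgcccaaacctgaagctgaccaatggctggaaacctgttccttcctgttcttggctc
Grifin (chr5:140565068-140565317, minus strand): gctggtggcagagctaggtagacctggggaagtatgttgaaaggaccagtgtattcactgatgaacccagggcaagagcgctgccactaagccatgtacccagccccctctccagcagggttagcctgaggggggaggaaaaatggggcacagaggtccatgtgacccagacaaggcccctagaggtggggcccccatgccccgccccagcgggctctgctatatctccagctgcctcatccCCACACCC
Birc7 (chr2:180928773-180929022, plus strand): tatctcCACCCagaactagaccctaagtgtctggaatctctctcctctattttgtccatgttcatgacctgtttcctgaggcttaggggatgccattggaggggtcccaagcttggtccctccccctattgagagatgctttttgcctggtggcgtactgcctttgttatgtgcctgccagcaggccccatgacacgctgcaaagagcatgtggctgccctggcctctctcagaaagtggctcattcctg
CACCC on either strand was present in the windows of all 8 genes, Lgsn included, and in 52% of the 32851 RefSeq promoter windows of the same length. The match nearest to the start began 5 bases before it in Grifin, and the others of these 4 began 53 bases before it in Bfsp1, 118 in Bfsp2 and 244 in Birc7. CCACNCCC was present in Vim and Grifin, against 15.9% of all windows. These matches describe letters only, and no binding was measured.

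The deposited signals were linear intensities scaled so that the trimmed mean of every array was 500. The lens was well represented: the 11 measured lens-defining genes (crystallins, Mip and Gja3) summed to 761400 to 775300 in Klf4CN and 993400 to 1139000 in WT lenses at PN56. Klf4 itself was not lower in the lenses labelled Klf4CN. Its brighter probe set read 717 ± 20.9 in Klf4CN and 185 ± 40.3 in WT at PN56 (SD, n = 2 each), a log2 difference of 1.88 (limma adjusted p = 0.00423), and 1079 ± 278 in Klf4CN against 739 ± 295 in WT at E16.5 (SD, n = 3 each). The labels do not say whether its probe sets lie in the deleted part, so the genotype below is the labelled one. The hybridisation spikes, bacterial and phage sequences that are normally added in equal amount before hybridisation, were also unequal. All 18 spike probe sets were lower in Klf4CN at PN56 without overlap, at 60.2% to 72.6% of WT, and at 81.8% to 95.3% of WT at E16.5, where 10 of 18 did not overlap. The arrays' control for the 5′ end of 18S ribosomal RNA differed the other way, at 8353 ± 3751 in Klf4CN and 1699 ± 1656 in WT at PN56 (SD, n = 2 each) and 21780 ± 945 in Klf4CN and 1869 ± 646 in WT at E16.5 (SD, n = 3 each). The middle and 3′ controls of 18S overlapped between the genotypes at PN56, at 88.6% and 130% of WT, and were higher in Klf4CN without overlap at E16.5, at 244% and 214% of WT. The beta-actin 3′ control averaged 62490 in Klf4CN and 81660 in WT at PN56, 76.5% of WT. The middle and 5′ controls of beta-actin stood at 84.5% and 92.3% of WT there. The 3′, middle and 5′ controls of Gapdh stood at 86.6%, 93.8% and 87.7%. All of these actin and Gapdh controls were lower in Klf4CN without overlap at PN56. The part of the spikes and of RNA or labelling quality in the differences below was not tested. In these whole-lens samples fewer fibre cells and less RNA per cell cannot be told apart.

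The first question was whether adult Klf4CN lenses differed from WT in these genes. With the deposited scaling all 7 read lower in Klf4CN at PN56 and 4 were called lower, Bfsp1, Bfsp2, Grifin and Birc7, but with arrays scaled to the spikes 0 were called and Bfsp2, Vim, Lim2, Tmod1 and Grifin turned above WT. With the deposited scaling, 6.99% of all genes tested were called lower, 6.08% higher and 13.1% in either direction. The spike scaling called 4278 of all genes, 97.2% of them higher, against 1757 with the deposited scaling. The groups did not overlap for any of the 7 genes, each lower in Klf4CN, against 29.1% of all genes not overlapping in that direction. The median log2 change of the 7 was -0.38, beside -0.057 for all genes tested. Of the 11 lens-defining genes, 8 were called lower with the deposited scaling, with a median of -0.45.

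**Figure D1:**
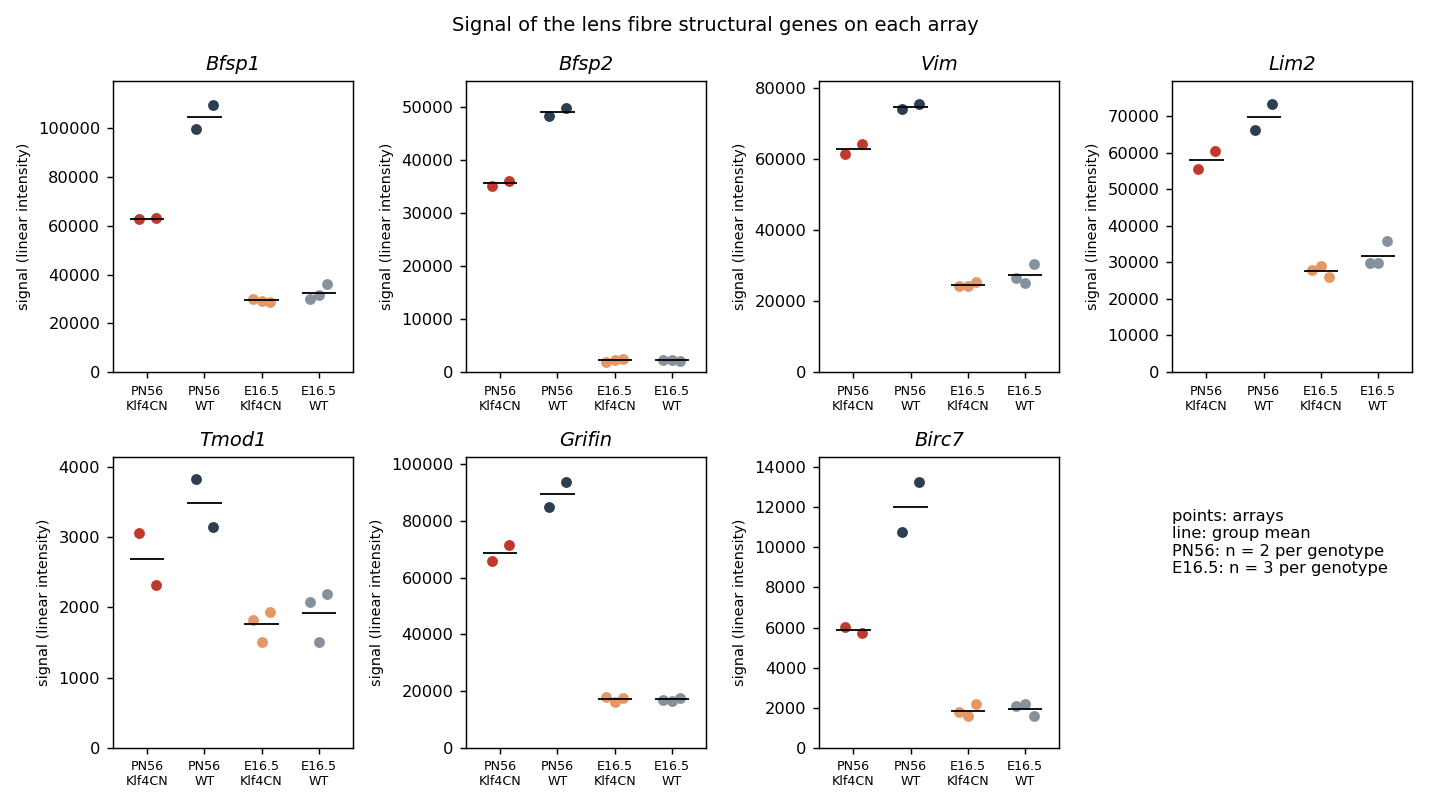
Signal of each gene on every array (linear intensity, axes starting at 0; Vim is its brightest probe set). Points are arrays, lines are group means, with 2 arrays per genotype at PN56 and 3 at E16.5. Every PN56 point of each gene lies above all its E16.5 points, and the Klf4CN points at PN56 lie below the WT points.

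Of the beaded filament pair, Bfsp1 had signals of 62711 and 63081 in Klf4CN lenses at PN56, against 99782 and 109756 in WT lenses. The Klf4CN samples were close together and far below both WT samples. Bfsp1 averaged 62900 ± 262 in Klf4CN and 104800 ± 7053 in WT (SD, n = 2 each), 60% of WT, a change of -0.73 ± 0.11 on the log2 scale (SE; adjusted p = 0.00122 by limma). Its 95% interval ran between -0.96 and -0.50, and 10% of all tested genes had a change as low or lower. Bfsp2 had 35067 and 36079 in Klf4CN, against 48237 and 49818 in WT. Its groups were also separate and each tight, with means of 35570 ± 716 in Klf4CN and 49030 ± 1118 in WT. Bfsp2 stood at 72.6% of WT, level with the highest spike, and its log2 difference was -0.46 ± 0.11 (SE; adjusted p = 0.0158 by limma). The Bfsp2 call was lost without PN56 Klf4CN replicate 2, WT replicate 1 or WT replicate 2.

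Within each array the log2 signal of Bfsp1 minus that of Bfsp2 removes the scaling factor. This difference was 0.82 ± 0.02 in Klf4CN and 1.09 ± 0.06 in WT at PN56 (SD, n = 2 each), so that Bfsp1 was lower relative to Bfsp2 by 0.27 in Klf4CN. The groups did not overlap, and the two-sided exact permutation p was 0.333, the smallest that 2 against 2 samples allow. After quantile normalization the difference was 0.0076, so the sign was not kept. The level of the difference itself has no meaning, since different probe sets bind with different efficiency.

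Vim, the general filament gene, was closer to WT. Its brightest probe set had 61450 and 64240 in Klf4CN at PN56, against 74083 and 75565 in WT. The groups were separate, at 84% of WT, and the log2 difference of -0.25 ± 0.10 (SE; adjusted p = 0.128 by limma) did not pass the test. The other probe sets of Vim gave log2 changes of -0.34 and -0.25, and neither passed.

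The membrane and membrane skeleton genes did not pass the test either. Lim2 had 55661 and 60389 in Klf4CN at PN56, against 66306 and 73470 in WT. That is 83% of WT without overlap, and -0.27 ± 0.11 on the log2 scale (SE; adjusted p = 0.145 by limma). Tmod1, the dimmest of the 7 on its probe set, had 3066 and 2327 in Klf4CN, against 3835 and 3143 in WT. The gap between its groups was narrow and the spread within each was wide. Tmod1 differed by -0.38 ± 0.20 on the log2 scale (SE; adjusted p = 0.238 by limma), with a 95% interval between -0.81 and 0.057, and it lay between -0.57 and -0.18 when single arrays were left out.

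Grifin and Birc7 were called. Grifin had 65860 and 71544 in Klf4CN at PN56, against 84886 and 93891 in WT, so that both Klf4CN samples lay below both WT samples. It stood at 76.9% of WT, or -0.38 ± 0.10 on the log2 scale (SE; adjusted p = 0.0232 by limma). The Grifin call was lost without PN56 Klf4CN replicate 1 or WT replicate 2, and under quantile normalization its log2 change was -0.09 (adjusted p = 0.52). Birc7 had 6013 and 5733 in Klf4CN, against 10751 and 13249 in WT. Its groups were the farthest apart of the 7 genes in ratio, with means of 5873 ± 198 in Klf4CN and 12000 ± 1767 in WT (SD, n = 2 each). Birc7 stood at 48.9% of WT, or -1.02 ± 0.17 on the log2 scale (SE; adjusted p = 0.00301 by limma), and 4.76% of all tested genes were as low or lower.

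**Figure D2:**
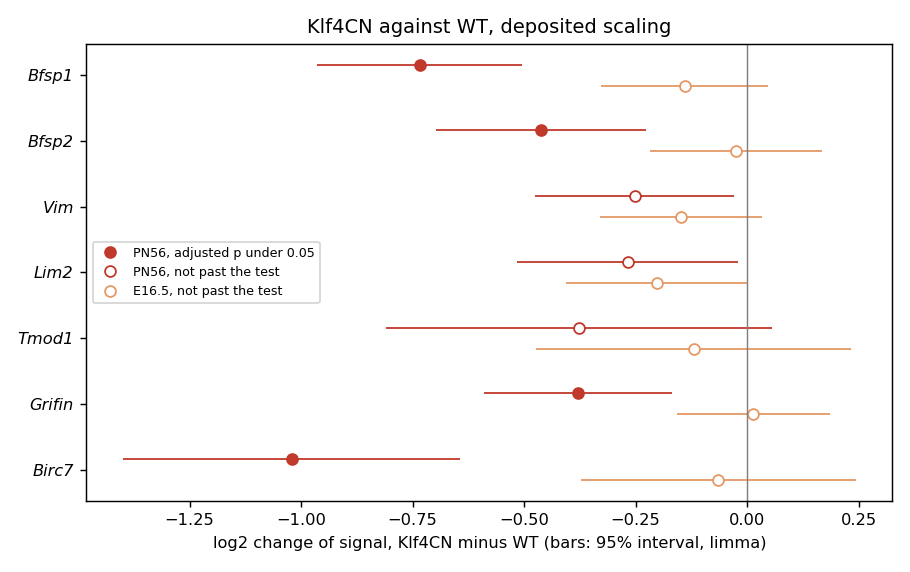
Log2 change of signal, Klf4CN minus WT, for each gene at PN56 (red) and E16.5 (orange), with 95% intervals from limma; filled points have an adjusted p under 0.05. The filled points are Bfsp1, Bfsp2, Grifin and Birc7 at PN56, and the E16.5 points lie between -0.20 and 0.01.

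The size of these differences has to be read beside the spikes. Birc7, at 48.9% of WT, and Bfsp1, at 60%, just under the lowest spike at 60.2%, were the members below the spikes' range at PN56, and the other 5 lay within it or above it. With arrays scaled to the spikes, an alternative added after seeing the data, the log2 change at PN56 was -0.14 for Bfsp1 and -0.43 for Birc7 (limma adjusted p = 0.438 and 0.142). The other 5 then lay between 0.13 for Bfsp2 and 0.34 for Vim, none past the test. That scaling moved the median of all genes to 0.49. Relative to the median of all genes, Bfsp1 stood at -0.68 with the deposited scaling and -0.64 with the spike scaling, Bfsp2 at -0.41 and -0.36, and Birc7 at -0.96 and -0.92. Most of the brightest genes outside the 7, at a mean PN56 signal of at least 50000, also read low at PN56. The crystallin genes among them had log2 changes between -1.03 for Crygf and -0.44 for Crybb2. The ribosomal protein genes among them lay on both sides of 0, between -0.37 for Rps2 and 0.42 for Rpl41. Of 48 with a mean PN56 signal of at least 50000, which Bfsp1, Vim, Lim2 and Grifin also had, 42 were below 0, 21 were called lower and 1 higher, with a median of -0.33. Of 184 at or above 20000, 57.1% were below 0, 37 were called lower and 20 higher, with a median of -0.07. Of 954 at or above 5000, 46.5% were below 0, 139 were called lower and 158 higher, with a median of 0.03. These cutoffs were chosen after seeing the data.

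**Figure D3:**
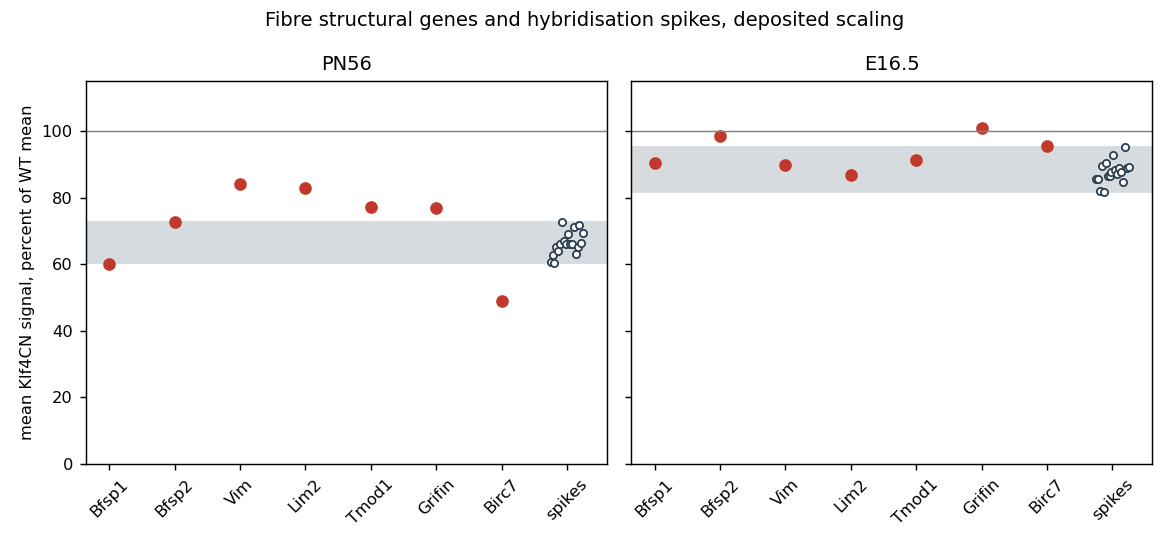
Mean Klf4CN signal as a percentage of the WT mean (linear axis from 0) at PN56 and at E16.5, for the 7 genes (red) and the 18 hybridisation spike probe sets (open points; the grey band is their range). At PN56 the spikes lie between 60.2% and 72.6% and only Birc7, at 48.9%, and Bfsp1, at 60%, lie below them; at E16.5 the spikes lie between 81.8% and 95.3% and no gene lies below them.

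**Figure D4:**
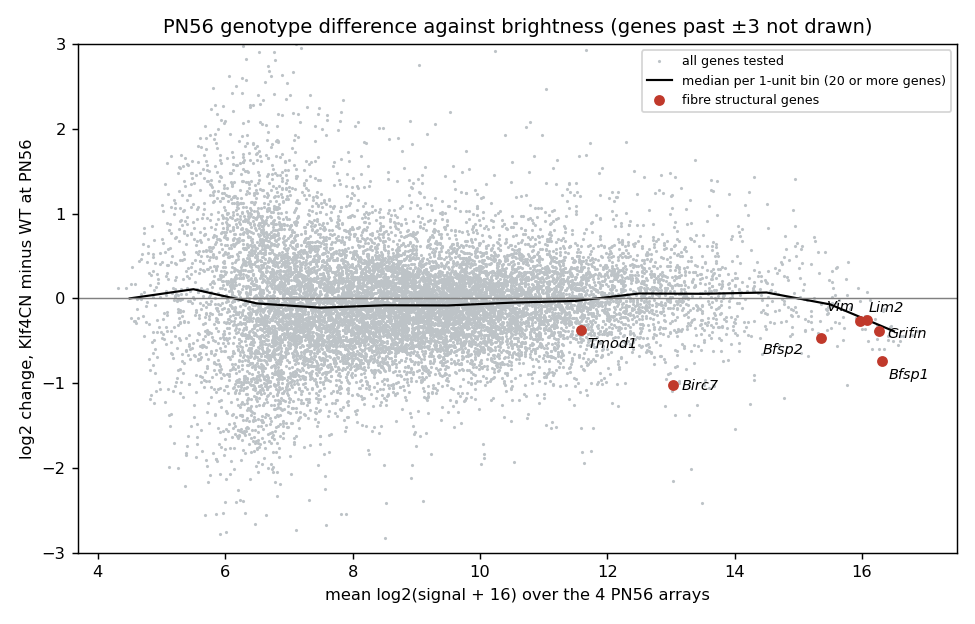
Log2 change, Klf4CN minus WT at PN56, against the mean of log2(signal + 16) over the PN56 arrays, for all tested genes (grey; the few past the axis limits are not drawn) and the 7 genes (red); the line is the median per bin. All 7 lie below 0 with the deposited scaling, and Bfsp1, Vim, Lim2 and Grifin lie at the bright end, where the line is also below 0.

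At E16.5 the same comparison gave no call. 0 of the 7 genes passed limma's test, beside 0.00744% of all genes, and 0 of the 7 had an unadjusted p under 0.05. The members' median log2 change was -0.12, with 6 of 7 below 0. Bfsp1 had 30065, 29330 and 28896 in Klf4CN, against 29785, 31570 and 36285 in WT. These groups overlapped, and the log2 difference was -0.14 ± 0.09 (SE; adjusted p = 0.9997 by limma). Bfsp2 had 1968, 2196 and 2430 in Klf4CN, against 2216, 2333 and 2137 in WT, also overlapping, with a log2 change of -0.02 (95% interval between -0.22 and 0.17).

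Lim2 was the member whose groups did not overlap at E16.5, against 6.65% of all genes not overlapping and lower. Its signals were 27835, 29093 and 25969 in Klf4CN, against 29960, 29878 and 35805 in WT, with a log2 change of -0.20 and an unadjusted limma p of 0.0501. Ordered by p, Lim2 was number 612 of the 13444 genes, so fewer than 612 had an unadjusted p under 0.05. Vim had 24278, 24359 and 25376 in Klf4CN, against 26633, 25143 and 30530 in WT. Its highest Klf4CN sample overlapped the lowest WT one, and the log2 change was -0.15. Grifin had 17879, 16295 and 17461 in Klf4CN, against 16921, 16538 and 17652 in WT. The groups were interleaved, with a log2 change of 0.01. Birc7 ranged between 1590 and 2166 in Klf4CN and between 1585 and 2158 in WT, and Tmod1 between 1514 and 1942 in Klf4CN and between 1502 and 2199 in WT. Their log2 changes were -0.06 and -0.12.

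Whether the genotype difference itself differed between the ages was tested as the PN56 change minus the E16.5 change. Bfsp1 and Birc7 were called, both lower at PN56, beside 2% of all genes called in that direction and 4.61% in either. The difference was -0.59 ± 0.14 for Bfsp1 (SE; limma adjusted p = 0.0302) and -0.96 ± 0.22 for Birc7 (adjusted p = 0.0328). Bfsp2 at -0.44 (adjusted p = 0.0984) and Grifin at -0.39 (adjusted p = 0.0962) did not pass, nor did Tmod1 at -0.26, Vim at -0.10 and Lim2 at -0.07. Neither call held with the spike scaling, which gave -0.19 for Bfsp1 and -0.55 for Birc7. The count was 0 to 2 when single arrays were left out, and 0 without E16.5 WT replicate 1, E16.5 Klf4CN replicate 1 or 3, PN56 WT replicate 2 or PN56 Klf4CN replicate 2.

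The second question was how these genes changed with age. With the deposited scaling all 7 were called higher at PN56 than at E16.5 in both genotypes, beside 22.3% of all genes called higher in Klf4CN and 25.8% in WT. But with the spike scaling 6 were called in Klf4CN and 5 in WT, and Tmod1 in WT turned to -0.03. That scaling called 7730 of all genes in Klf4CN, 18.5% of them higher, and 8849 in WT, 11.6% of them higher. No gene's age groups overlapped, against 31.3% of all genes not overlapping and higher in Klf4CN and 34% in WT. Age went with the number of animals pooled and with the preparation: the dap poly-A spike probe set read 50.1 in Klf4CN and 7.6 in WT at PN56, against 5970 in Klf4CN and 6098 in WT at E16.5. Age and preparation therefore cannot be told apart.

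Of the 7 genes Bfsp2 changed most. It averaged 35570 ± 716 in Klf4CN at PN56 and 2198 ± 231 at E16.5 (SD, n = 2 and 3), 16.2 times as high, and 49030 ± 1118 in WT at PN56 and 2228 ± 98.6 at E16.5, 22 times as high. The log2 change was 4.01 ± 0.10 in Klf4CN (SE; limma adjusted p = 1.2e-10) and 4.45 ± 0.10 in WT (adjusted p = 5.17e-11). Ordered by p, Bfsp2 was number 3 of the 13444 genes in Klf4CN and number 2 in WT. With the spike scaling its log2 change was 3.52 in Klf4CN and 3.55 in WT. Its partner Bfsp1 changed less, with a ratio of PN56 to E16.5 of 2.14 in Klf4CN and 3.22 in WT. The log2 signal of Bfsp1 minus that of Bfsp2 was 0.82 at PN56 and 3.74 at E16.5 in Klf4CN, and 1.09 at PN56 and 3.86 at E16.5 in WT.

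Grifin was 3.99 times as high at PN56 as at E16.5 in Klf4CN and 5.25 times in WT, and Birc7 3.17 times and 6.18 times. Vim was 2.55 times as high in Klf4CN and 2.73 times in WT on its brightest probe set, and Lim2 2.1 times and 2.19 times. Vim's other probe sets changed less, with ratios between 1.34 and 1.69, so the size of its age change depends on the probe set. Tmod1 had the smallest ratio, 1.53 in Klf4CN (limma adjusted p = 0.0137) and 1.81 in WT (adjusted p = 0.00149). The highest signal on an array was also higher at PN56, at 102600 to 145600, against 45760 to 56130 at E16.5. Lim2 lay between the 99.67 and 99.87 percentile of its array at E16.5 and between the 99.77 and 99.86 percentile at PN56. After quantile normalization the age change of Bfsp1 in Klf4CN was 0.08 and that of Lim2 was 0.14 in each genotype, none past the test. The Tmod1 call in Klf4CN was lost without PN56 Klf4CN replicate 1. Every gene was highest in PN56 WT, then PN56 Klf4CN, without overlap between neighbours down to the E16.5 groups, which were separate from each other only in Lim2.

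**Figure D5:**
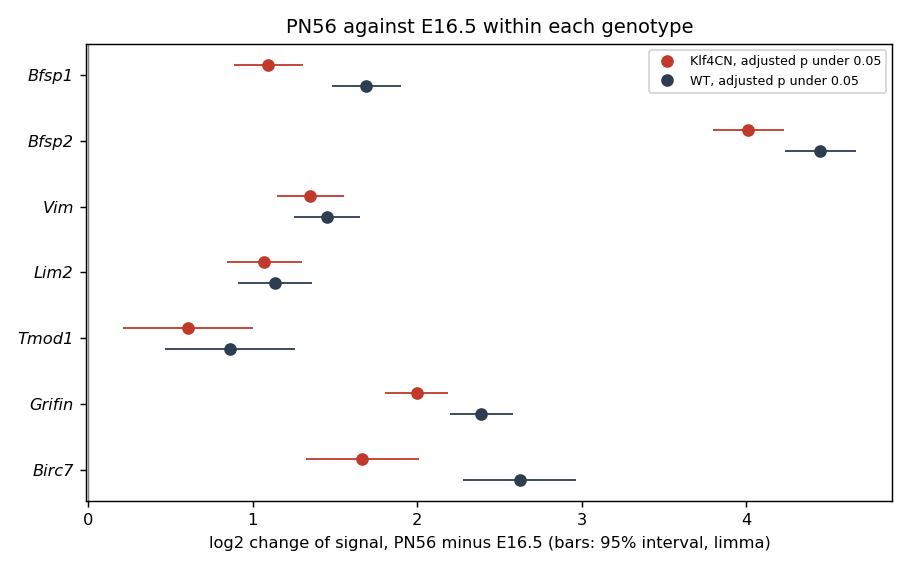
Log2 change of signal, PN56 minus E16.5, for each gene in Klf4CN and WT lenses, with 95% intervals from limma. Bfsp2 lies near 4 (4.01 in Klf4CN and 4.45 in WT), and the other 6 genes lie between 0.61 and 2.62.

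Related genes were read from 4 lists, with the deposited scaling first. Of 19 tested membrane skeleton genes (spectrins, ankyrins, protein 4.1 relatives, adducins, tropomyosins and tropomodulin relatives), 2 were called higher and 1 lower in Klf4CN at PN56, with a median of 0.09. Ank2, an ankyrin, averaged 6184 ± 947 in Klf4CN and 4266 ± 647 in WT, a log2 change of 0.53 (limma adjusted p = 0.0278). Epb41l3, a protein 4.1 relative, changed by 0.41 (adjusted p = 0.0368) and Add2, beta-adducin, by -0.49 (adjusted p = 0.0472). Add3, gamma-adducin, at -0.61 (adjusted p = 0.0703) did not pass. Among 20 other intermediate filament, lamin and linker genes, 1 was called higher and 0 lower, with a median of -0.12. That gene was Gfap, the filament protein of astrocytes, at 366 ± 164 in Klf4CN and 117 ± 80.5 in WT (log2 change 1.60, adjusted p = 0.0287). Macf1, Evpl and Lmnb1 had log2 changes of -0.60, -0.64 and -0.32, none past the test.

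Of 18 fibre membrane, junction and adhesion genes, 1 was called higher and 4 lower at PN56, with a median of -0.23. Gje1, a connexin gene, had a mean of 3434 ± 395 in Klf4CN and 833 ± 117 in WT (SD, n = 2 each), a log2 change of 2.03 (limma adjusted p = 5.24e-06). Ezr, which encodes the membrane-actin linker ezrin, averaged 6032 ± 445 in Klf4CN and 8818 ± 34.9 in WT (log2 change -0.55, adjusted p = 0.00425). The cadherin-associated Arvcf changed by -0.68, the adhesion molecule Nrcam by -0.37 and Mip, the fibre water channel aquaporin 0, by -0.35, with adjusted p of 0.00562, 0.0426 and 0.047. Of 16 relatives of Lgsn, Grifin, Birc7 and Lim2 (glutamine synthetase, galectins, inhibitor of apoptosis genes and the PMP22 family), 1 was called higher and 0 lower, with a median of 0.18. That gene was Lgals3, galectin 3, at 23910 ± 1049 in Klf4CN and 16100 ± 1439 in WT (log2 change 0.57, adjusted p = 0.011). Birc5, Emp3 and Lgals4 had log2 changes of 0.66, 0.81 and 1.396 that did not pass. With the spike scaling no gene of the 4 lists was called lower: Add2, Ezr, Nrcam and Mip turned to 0.10, 0.04, 0.22 and 0.24, Arvcf stood at -0.10, and the calls higher became 11 in the membrane skeleton list, 3 among the other filament genes, 7 in the fibre membrane list and 10 among the relatives. Over all genes, the same scaling called 4278 at PN56, 97.2% of them higher. The deposited scaling called 1757, 46.5% of them higher. The calls of Gfap and Gje1 were higher under every scaling tried, the Ank2, Lgals3 and Mip calls were lost under quantile normalization, and those of Ank2 and Epb41l3 under cyclic loess. With each array centred on its median, the calls of Add2, Ezr, Nrcam and Mip were lost, which left 1 fibre membrane gene, Arvcf, called lower.

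At E16.5, 0 genes of the 4 lists were called by limma. Fewer than 612 of all 13444 genes had an unadjusted limma p under 0.05. In the lists there were 4 among the other filament genes, 1 in the fibre membrane list and 0 in the other lists. The smallest p-values were those of Aqp5, Krt18 and Nefm, with log2 changes of -1.14, 0.95 and 1.65 (adjusted p = 0.795, 0.937 and 0.945). Nefm and Nefl, at 2.66, are neurofilament genes and also in the retinal marker list. The next were Ina at 1.95, Tpm1 at 0.27, Epb41l2 at -0.18, Sptbn1 at -0.14, Ank2 at -0.16, Mip at -0.15, Arvcf at -0.18 and Epha2 at 0.24. Lgals12 at -0.75, Glul at 0.52, Lgals3 at -0.11 and Birc2 at -0.14 were the smallest p-values among the relatives.

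With age the related lists moved both ways, beside 30.8% of all genes called lower at PN56 in Klf4CN and 30.9% in WT. Of the membrane skeleton genes, 5 were called higher and 9 lower in each genotype. The other filament genes had 7 higher and 8 lower in Klf4CN and 6 each way in WT, and the fibre membrane genes 5 higher and 6 lower in Klf4CN and 8 higher and 7 lower in WT. The relatives had 7 higher and 3 lower in Klf4CN and 8 higher and 3 lower in WT. Lgals3 changed by 4.73 on the log2 scale in Klf4CN and 4.05 in WT, and Gje1 by -2.63 in Klf4CN and -4.66 in WT, all called by limma.

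Markers of other cells separated the genotypes in some lists and not in others. At PN56, with the deposited scaling, 5 of 10 lens epithelium genes were called lower in Klf4CN, with summed signals between 65850 and 79020 in Klf4CN and between 104300 and 106900 in WT. The 9 pigment cell genes summed to 5672 and 5707 in Klf4CN, against 9282 and 11220 in WT. Of 7 tested, 0 were called by limma and 2 had an unadjusted p under 0.05, as did at least 3399 of all 13444 genes. Of 12 macrophage genes 2 were called higher, and their sums were between 3224 and 5710 in Klf4CN and between 3013 and 3027 in WT. Photoreceptor genes summed to 6513 and 20550 in Klf4CN, against 7895 and 8298 in WT, with Prph2 under a signal of 16 on every PN56 array. Of 10 tested, 10 were above 0 with a median log2 change of 0.52, and 0 were called by limma. The mean log2 signal of the photoreceptor list was 8.66 and 10.12 in Klf4CN, against 8.84 and 8.91 in WT. Mesenchymal genes, which bear on Vim, summed to between 3770 and 4502 in Klf4CN and between 4502 and 5286 in WT, but 6 of 9 were above 0 with a median log2 change of 0.31. Their mean log2 signal was 7.79 on both Klf4CN arrays, against 7.31 and 7.39 in WT, and Col3a1 was called higher and Pdgfra lower. At E16.5 retinal genes summed to between 13550 and 27120 in Klf4CN and between 8048 and 18150 in WT, and pigment genes to between 3526 and 9358 in Klf4CN and between 2599 and 3673 in WT. There 0 of these genes were called by limma, and 6 of 14 retinal and 5 of 7 pigment genes had an unadjusted p under 0.05. Fewer than 612 of the 13444 genes tested had an unadjusted p under 0.05 at E16.5. Of the mesenchymal genes at E16.5, 0 of 9 were called and 5 had an unadjusted p under 0.05, with 8 of 9 above 0 and a median of 0.80. Their sums were between 5340 and 5957 in Klf4CN and between 5421 and 5909 in WT. The part of these cells in the members' differences was not tested.

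After each age's mean was subtracted, the members followed each other to different degrees over the 10 arrays, which share their groups and scaling. Pearson's r was 0.92 for Bfsp2 with Birc7, 0.90 for Bfsp1 with Grifin, 0.89 for Vim with Lim2, 0.80 for Bfsp1 with Bfsp2, and lowest, 0.36, for Lim2 with Tmod1. By the same measure, the 3 genes most like Bfsp1 were Crygf, a gamma-crystallin gene (0.98), Actb (0.97) and Tdrd7 (0.97), and those most like Bfsp2 were Epb41l4b (0.97), Igdcc4 (0.95) and Psme3 (0.95). Vim was closest to Fabp5 (0.96), Dclre1a (0.96) and Epn1 (0.95), and Lim2 to Rpl4 (0.98), Crygb (0.95) and Crybb3 (0.95). Tmod1 was closest to Naglu (0.98), E2f5 (0.95) and Rrbp1 (0.95), Grifin to Map3k12 (0.98), Hmgxb3 (0.98) and Lrmda (0.97), and Birc7 to Ccdc180 (0.97), Sh2b3 (0.96) and Klhl6 (0.96).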

How the data were processed

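The authors deposited a linear intensity for each probe set on each array, made with GCOS 1.4 per the submitters' processing notes. What else was done is not given in the sources used here. Total RNA was amplified and biotin-labelled for Affymetrix mouse 430 2 arrays, per the labels' protocols. The mean after trimming 2% at each end was 500 on all 10 arrays. No detection calls were used. Of 45101 probe sets, 34945 carried 1 gene symbol, 932 several and 9160 none, and 64 were controls. Of the 34945 probe sets, 34741 matched RefSeq (GRCm38.p6) through their gene number, and 0 of their symbols changed.

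Signals were taken as log2(signal + 16), so fold changes of dim genes come out too small. Each gene was represented by its brightest probe set, and genes with a mean signal at or above the 40th percentile (54.1) were tested. All 10 arrays entered 1 limma fit (3.58.1, R 4.3.3) of 4 group means, eBayes with intensity trend, Benjamini-Hochberg adjustment, two-sided, called at adjusted p under 0.05. The fit was also run on simulated data with independent noise and no scaling difference between arrays, which does not bear on the spike differences. Samples were independent preparations per the labels' protocols. Deviations of same-numbered samples from their group means correlated at 0.271, 0.241 and 0.052 at E16.5. Differently numbered samples there lay between -0.276 and 0.062. At PN56 the same-numbered value was 0.041, but with 2 samples per group the values mirror each other by construction. Whether same-numbered samples were paired is therefore not settled, and the main fit used no pairing. Named genes were the members, Klf4, control probe sets that moved with a member, the 4 of smallest p at each age in each related list, and the 3 most like each member. The members and lists were chosen with earlier results of these data known. Promoters are from RefSeq. Alternatives varied the normalization, offset, filter, probe set rule, model and threshold, and left out each array.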

Additional observations from a re-analysis of the deposited data

Results flagged for a closer look

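For 2 genes the Klf4CN difference at PN56 differed from that at E16.5 by the test of the difference itself. Bfsp1 differed by -0.59 on the log2 scale, from -0.73 at PN56 and -0.14 at E16.5 (limma adjusted p = 0.0302), and the 2 Klf4CN samples were below both WT samples at PN56 while the groups overlapped at E16.5. Birc7 differed by -0.96, from -1.02 at PN56 and -0.06 at E16.5 (adjusted p = 0.0328), with the same sample pattern. Under the alternatives run, the limma adjusted p lay between 0.00876 and 0.554 for Bfsp1 and between 0.0251 and 0.257 for Birc7. Of these 25 alternatives, 15 lost the Bfsp1 call and 12 lost the Birc7 call. The hybridisation spikes read 60.2% to 72.6% of WT at PN56 and 81.8% to 95.3% at E16.5, and their part in both differences was not tested.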

How the results depend on the processing

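At PN56, Bfsp1 and Birc7 passed the test in every alternative run but the spike scaling. The count of called members was 4, and 2 with arrays centred on their medians, no intensity trend, array weights, only the compared groups or an adjusted p under 0.01; it was 3 with quantile normalization or no filter, 0 with the spike scaling, 6 with cyclic loess (both added after seeing the data) and 2 to 4 with single arrays left out. Over all genes, 1757 were called at PN56 as reported and 1834 with quantile normalization. Median centring called 1281, cyclic loess 1790 and the spike scaling 4278. Median centring gave 71.9% of all calls higher and the spike scaling 97.2%, against 46.5% as reported. For the difference between ages the count was 2, and 1 with quantile normalization or no filter, 0 with median centring, the mean of probe sets, no trend, array weights, an adjusted p under 0.01 or the spike scaling, 4 with an adjusted p under 0.1, 3 with cyclic loess (Grifin too), and 0 to 2 with single arrays left out. For that difference, 620 of all genes were called as reported and 652 with quantile normalization. Median centring then called 476, cyclic loess 674 and the spike scaling 907. The cause was not tested.

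The spike scaling turned these log2 changes: at PN56 Bfsp2 0.13, Vim 0.34, Lim2 0.32, Tmod1 0.21 and Grifin 0.21; at E16.5 Bfsp1 0.045, Bfsp2 0.16, Vim 0.037, Tmod1 0.064 and Birc7 0.12; in the difference between ages Vim 0.30, Lim2 0.34, Tmod1 0.15 and Grifin 0.011; and for age in WT Tmod1 -0.028. Median centring turned Grifin at E16.5 (-0.031) and, in the difference between ages, Vim (0.069) and Lim2 (0.11), and cyclic loess turned Bfsp2 at E16.5 (0.019). With single arrays left out, at E16.5 Bfsp2 lay between -0.099 and 0.052, Grifin between -0.014 and 0.053 and Birc7 between -0.20 and 0.039, and Lim2 in the difference between ages between -0.15 and 0.0089. Bfsp1 minus Bfsp2 turned to 0.0076 at PN56 and 0.0088 at E16.5 under quantile normalization and moved to -0.37 at PN56 under cyclic loess.

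With the replicate number as a block, 5 members were called at PN56 (Tmod1 too, adjusted p = 0.0486), 0 at E16.5, 3 in the difference between ages (Grifin too) and 7 for age in each genotype; no other call changed. With 2 arrays per genotype at PN56, small differences were not detectable.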
